A study of Mus musculus with 8 samples.

Results

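Keratins and keratin-associated proteins (KRTAPs) were followed in primary mouse myofibroblastic hepatic stellate cells (pMF-HSCs) in which O-GlcNAc transferase was inhibited. Members were all genes named Krt or Krtap followed by a number, which gave 111 of the 40840 genes in the files, 55 keratins and 56 KRTAPs. At least 10 counts summed over the 8 libraries were found for 23 of them, 14 keratins and 9 KRTAPs, whereas 56 members had no count in any library and 32 had 1 to 9 counts. The family was chosen by the counts of Krtap21-1, which were far higher in the treated cells, so Krtap21-1 is described here without a test.

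Hepatic stellate cells were isolated from livers of wild-type C57BL/6J male mice aged 15 to 18 weeks, sorted on the autofluorescence of their retinol stores, and became myofibroblastic (MF-HSCs) during 7 days of culture. The cells then received DMSO (Control, 4 libraries) or the O-GlcNAc transferase inhibitor OSMI-1 at 50 µM (OGTi, 4 libraries) for 24 h, and polyadenylated RNA was sequenced with strand information. No other allele or agent was given to either group, and DMSO was the only vehicle. The labels call the 4 replicates biological, and the study pairs the Control and OGTi libraries of a replicate. The question was how blocking O-GlcNAcylation, the addition of a single sugar to serines and threonines of intracellular proteins, changes the transcriptome of these cells.

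Keratins are the intermediate filament proteins of epithelia. A type I keratin always polymerises with a type II keratin, so a cell that builds keratin filaments makes at least 1 of each. Keratins 8, 18, 7, 19 and 20 belong to simple epithelia such as bile ducts, and other keratins to the layers of the epidermis or to hair. KRTAPs are small proteins, rich in cysteine or in glycine and tyrosine, that crosslink keratin filaments in the hair shaft. Stellate cells are mesenchymal, and their usual filaments are made of vimentin, desmin and, in rodents, GFAP.

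The libraries held 30068876 to 37372420 expected counts, and 15 to 36 members had a count in a given library. OGTi replicate 4 stood apart, with 36 members detected against 15 to 24 in the other 7 libraries and 23746 genes detected against 19035 to 20293. This library held a count for 17 of the 88 members below the threshold of 10, against 2 to 7 of them elsewhere, but only 23 counts in all for those 88. All 12 stellate and myofibroblast markers were detected, summing to 8751 to 15778 CPM (counts scaled to library size) in Control and 7186 to 18000.1 in OGTi. Des, the desmin gene, had 4183 to 9491 counts per library and Gfap, coding for glial fibrillary acidic protein, 0 to 16. Of the 12, Lrat, the retinol-storing enzyme, and Pdgfrb, a growth factor receptor, were lower under OGTi, at 754 to 2003 against 282 to 345 counts (adjusted p = 0.00232) and 5812 to 16208 against 1541 to 3397 counts (adjusted p = 0.00154). Over all genes tested, 10.2% were lower. In bulk RNA, fewer cells of a type and less RNA per cell cannot be told apart.

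The start regions of the KRTAP genes that carry the result are shown first, since they share a sequence feature. All are read 5′ to 3′ on the gene's strand. Each is the 150 bases immediately before the RefSeq transcription start, except for Krtap21-1. For that gene only 30 bases around TATAAA are given, because the GENCODE start lies 94 bases upstream of the RefSeq start. These 30 bases lie downstream of the GENCODE start. The sequences were taken from the RefSeq promoter table (build GRCm38) and placed on GRCm39 by exact match. Capitals mark the TATA box motif TATAAA and TGANTCA, a loosened form of the AP-1 site in which N is any base. Krtap31-2, a close relative of Krtap31-1, was added after its values were seen.
Krtap21-1, chr16:89200706-89200735, minus strand: atctctgtagggTATAAAagtccaggcaga
Krtap6-2, chr16:89217000-89217149, minus strand: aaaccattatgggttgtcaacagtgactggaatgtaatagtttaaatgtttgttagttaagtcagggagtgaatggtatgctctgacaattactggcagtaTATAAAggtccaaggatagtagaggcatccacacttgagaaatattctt
Krtap4-16, chr11:99742432-99742581, minus strand: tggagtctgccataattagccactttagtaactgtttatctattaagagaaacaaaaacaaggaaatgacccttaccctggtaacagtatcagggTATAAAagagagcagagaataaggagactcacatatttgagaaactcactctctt
Krtap31-1, chr11:99798596-99798745, plus strand: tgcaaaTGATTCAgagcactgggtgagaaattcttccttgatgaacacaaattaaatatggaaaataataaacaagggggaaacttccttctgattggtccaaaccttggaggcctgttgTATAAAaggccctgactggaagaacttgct
Krtap31-2, chr11:99826967-99827116, plus strand: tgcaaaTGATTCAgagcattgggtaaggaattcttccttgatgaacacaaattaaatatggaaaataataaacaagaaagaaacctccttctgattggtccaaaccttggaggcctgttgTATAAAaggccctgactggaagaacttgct

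All 5 regions held TATAAA on the gene strand, starting 61 bases before the RefSeq start in Krtap21-1, 55 in Krtap4-16, 49 in Krtap6-2 and 30 in both Krtap31 genes. The motif, searched on both strands, was present in 8.08% of the 27025 mouse promoter regions of this length and in 41 of the 51 KRTAP promoters of the table, or 80.4%. TATAAA was therefore common in KRTAP promoters whether or not the gene was detected here. The search set no position within the 150 bases, so whether each match works as a TATA box was not tested. TGANTCA occurred, as TGATTCA, in the regions of Krtap31-1 and Krtap31-2. With any middle base it was present in 4.27% of all promoters and in 5 of the 51 KRTAP promoters, or 9.80%. The regions of Krtap31-1 and Krtap31-2 were 95.3% identical, with 143 of 150 bases the same. A KLF core, CACCC, was found in 1 of the 5 regions, in 36.9% of all promoters and in 33.3% of the KRTAP promoters. CTTTGA, a LEF/TCF core held by 8% of all promoters, and ACCGGT, a GRHL core held by 1.06%, were not among these letters.

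The KRTAPs that changed were all higher under OGTi. Krtap4-16, Krtap31-1 and Krtap6-2 passed the test, and Krtap21-1, described only, was higher as well. The summed KRTAP level, given in TPM, a measure corrected for transcript length and depth, was 3.60 ± 1.24 in Control and 48.0 ± 8.96 in OGTi (SD, n = 4). This sum includes Krtap21-1. Krtap21-1 and Krtap4-16 together made up 84.5% to 91.1% of KRTAP TPM in the OGTi libraries and 40.5% to 66.3% in Control. Of the 8 detected KRTAPs other than Krtap21-1, 3 were higher in the edgeR quasi-likelihood test with replicate as a block (Benjamini-Hochberg adjusted p at most 0.05) and none was lower. Over all 19963 genes tested, 8.13% were higher and 10.2% lower, 18.4% in either direction. The threshold of 10 counts was reached by 8 members that had fewer than 10 counts in Control, so that counts over the detected members are a description only. Krtap31-1 and Krtap6-2 are among these 8, with 7 and 1 counts over the Control libraries. They were tested only because of their OGTi counts.

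Krtap21-1, coding for a glycine- and tyrosine-rich KRTAP, lies at chr16:89200106-89200756 on the minus strand (GENCODE M39, GRCm39). It had 7, 6, 5 and 3 counts in Control replicates 1 to 4 and 254, 324, 218 and 150 counts in OGTi replicates 1 to 4. The groups did not overlap, since the lowest OGTi library was far above the highest Control library. Its mean TPM was 0.453 ± 0.129 in Control and 19.9 ± 7.98 in OGTi (SD, n = 4). The fitted log2 fold change was 5.71, a description only, because the family was chosen by this rise. Among its 20 nearest protein-coding neighbours, 10 on each side in RefSeq order, 13 had fewer than 10 counts over all libraries and 11 had none. The 7 detected neighbours were Krtap6-2 and 6 genes outside the family.

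Krtap6-2 is a second glycine- and tyrosine-rich KRTAP, at chr16:89216214-89216999 on the minus strand. It had 0, 1, 0 and 0 counts in Control and 8, 15, 9 and 5 in OGTi. Every OGTi library was above every Control library. The ratio of depth-scaled group totals, 37 counts against 1, was 44.1 with a 95% counting interval of 7.44 to 1789, and the log2 fold change was 5.05 (SE 1.28, adjusted p = 0.0216). Leaving out any of the 4 pairs ended this call, with adjusted p between 0.0556 without pair 4 and 0.101 without pair 2. Krtap6-2 and Krtap21-1 share 45 stretches of 50 bases, 6.92% of those in Krtap6-2 and 7.69% of those in Krtap21-1, so that reads can be split between them. Krtap6-2 counts were 0.0315, 0.0463, 0.0413 and 0.0333 times those of Krtap21-1 in OGTi replicates 1 to 4, and whether shared reads account for them was not tested.

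Krtap4-16, a cysteine-rich KRTAP of the chromosome 11 cluster, lies at chr11:99741481-99742434 on the minus strand. Control libraries held 25, 21, 26 and 14 counts and OGTi libraries 292, 149, 538 and 487. No Control value came near the OGTi range, although OGTi replicates 3 and 4 were well above replicates 1 and 2. Its mean TPM was 1.34 ± 0.327 in Control and 21.7 ± 11.2 in OGTi (SD, n = 4). The fitted log2 fold change was 4.20 (SE 0.40, adjusted p = 0.000266). Without pair 4, which holds the library that stood apart, the log2 fold change was 3.85 (SE 0.40, adjusted p = 0.00293). No 50-base stretch of Krtap4-16 was found in another gene's transcript. Only exact matches were searched, so whether reads with mismatches could be shared was not tested.

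Krtap31-1, another cysteine-rich KRTAP of that cluster, lies at chr11:99798746-99799718 on the plus strand. It had 1, 4, 2 and 0 counts in Control against 64, 43, 48 and 23 in OGTi. The groups were separate, and OGTi replicate 4 was the lowest of the treated libraries. The log2 fold change was 4.92 (SE 0.67, adjusted p = 0.00122), and it was 4.67 (SE 0.68, adjusted p = 0.00669) without pair 4. Its near copy Krtap31-2, at chr11:99827117-99828051, had 0, 0, 1 and 0 counts in Control and 14, 3, 5 and 7 in OGTi, a ratio of 34.6 with a counting interval of 5.73 to 1412 and an adjusted p of 0.0526. Krtap31-1 shares 39.5% of its 50-base stretches with Krtap31-2 and Krtap31-3, and Krtap31-2 shares 41.5% with Krtap31-1 and Krtap31-3. Krtap31-3 was not found by name among the genes counted. The division of reads between these genes is therefore uncertain. The calls for Krtap4-16 and Krtap31-1 held in each of the 13 alternative analyses. Their size depended on the scale, since on log2(TPM + 1), which compresses low values, the log2 fold change was 3.15 for Krtap4-16, 1.65 for Krtap31-1, 0.74 for Krtap6-2 and 3.78 for Krtap21-1.

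**Figure D1:**
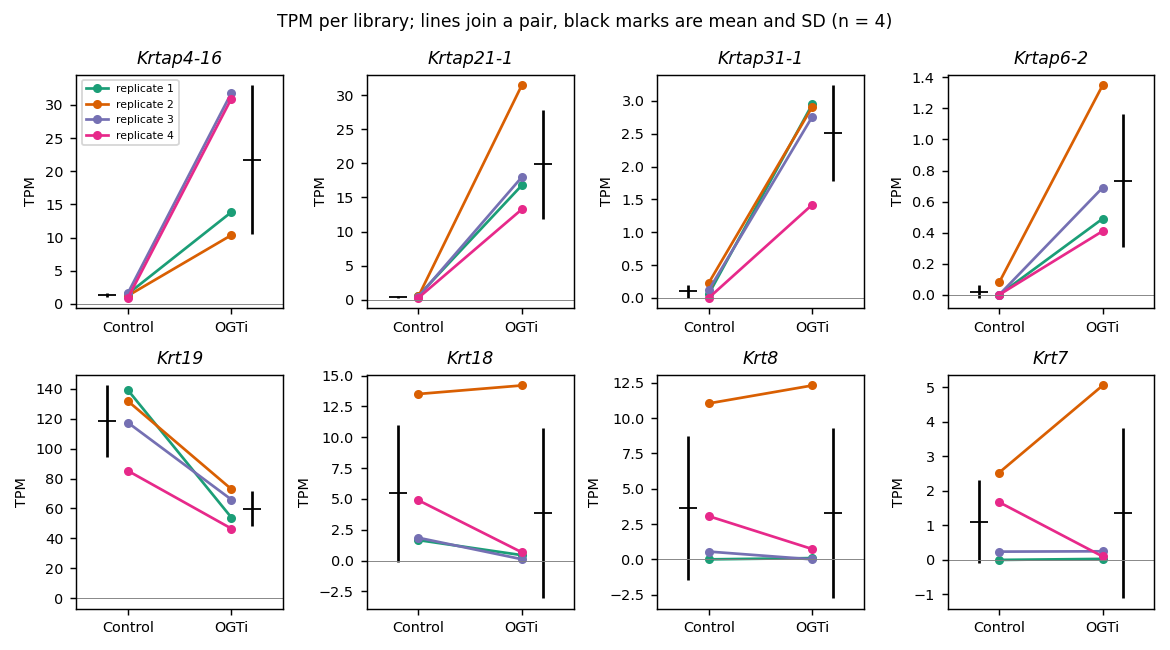
TPM of 4 KRTAPs (top) and 4 simple epithelial keratins (bottom) in each library; coloured lines join the Control and OGTi libraries of a replicate, and black marks give mean and SD (n = 4 per group). OGTi lies above Control in all 4 pairs of each KRTAP panel and below it in all 4 pairs for Krt19, whereas Krt18, Krt8 and Krt7 are dominated by replicate 2.

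The 5 other detected KRTAPs did not pass the test. Krtap3-2 had 24, 26, 14 and 3 counts in Control and 20, 24, 31 and 6 in OGTi, groups that overlapped fully, with a log2 fold change of 0.63 (SE 0.54, adjusted p = 0.474). Krtap3-3, with 1 to 8 counts in Control and 1 to 11 in OGTi, and Krtap1-5, with 1 to 7 and 0 to 11, overlapped as well. Krtap3-2 and Krtap3-3 share 28.9% and 41.3% of their 50-base stretches with other genes, so their counts are uncertain too. Krtap4-9 stood at 0, 0, 5 and 2 counts in Control and 9, 6, 26 and 2 in OGTi, higher in 3 pairs and level in the other, with an adjusted p of 0.118. It shares 17.5% of its 50-base stretches with 14 other genes, so its counts are uncertain as well. Of the high glycine-tyrosine KRTAPs 13 of 15 were below the threshold of 10 counts, and of the cysteine-rich KRTAPs 34 of 41.

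Of the 24 KRTAPs on chromosome 16, 2 had 10 counts or more, and of the 23 on chromosome 11, 7 had. On chromosome 11 the nearest 20 protein-coding neighbours of Krtap31-1 included 18 with fewer than 10 counts, and those of Krtap4-16 included 16. The detected neighbours of Krtap31-1 were Krtap4-16 and Krtap31-2, and those of Krtap4-16 were Krtap31-1, Krtap31-2, Krtap4-9 and Gm11595. The 9 KRTAPs on chromosomes 1, 7 and 10 all remained under 10 counts.

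**Figure D2:**
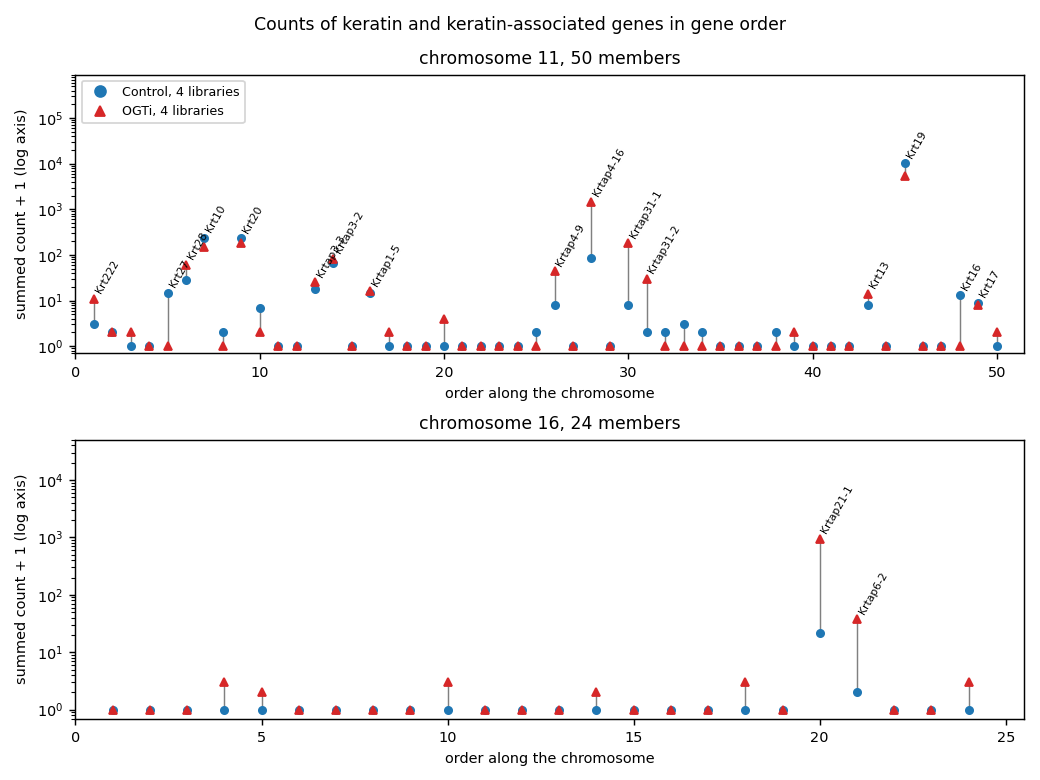
Summed counts plus 1 (log axis) of the 50 members on chromosome 11 and the 24 on chromosome 16 in their order along the chromosome, over 4 Control libraries (circles) and 4 OGTi libraries (triangles). Names mark the members with at least 10 counts; on chromosome 16 only Krtap21-1 and Krtap6-2 reach 10 counts, and on chromosome 11 Krtap4-9, Krtap4-16, Krtap31-1 and Krtap31-2 lie near each other, with members at or near 0 between them.

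None of the 14 detected keratins was higher and 1, Krt19, was lower, shares near the 8.13% and 10.2% over all genes tested and so no result about keratins as a group. The median log2 fold change was -0.47 over the 14 keratins and 3.55 over the 8 other KRTAPs, beside 0.0053 over all genes tested. These medians describe genes that passed the count threshold, of which 11 of the 23 had fewer than 10 counts in 1 group. Among the 8 KRTAPs, Krtap31-1, Krtap31-2, Krtap6-2 and Krtap4-9 had 7, 1, 1 and 7 counts over the Control libraries. They passed the threshold only through their OGTi counts and could hardly come out low, so the 3.55 is no result about KRTAPs. Krtap4-16, Krtap3-2, Krtap3-3 and Krtap1-5 had at least 10 counts in each group, and their log2 fold changes were 4.20, 0.63, 0.67 and -0.13. The difference between keratins and KRTAPs was not tested.

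Krt19, the type I keratin of bile duct and other simple epithelia, was by far the most abundant member. The gene lies at chr11:100031636-100039491 on the minus strand. It had 3029, 2961, 2442 and 1725 counts in Control and 1522, 1395, 1489 and 959 in OGTi. Each OGTi library was below each Control library, and the level was lower in all 4 pairs. The TPM mean was 118 ± 23.9 in Control and 59.8 ± 11.8 in OGTi (SD, n = 4), and the log2 fold change after TMM scaling, which takes account of the composition of the libraries, was -0.66 (SE 0.20, adjusted p = 0.0462). This call was close to the threshold, and it was lost with upper-quartile scaling (adjusted p = 0.110), without the count filter (adjusted p = 0.0561), without the replicate block (adjusted p = 0.0731) and without any 1 of the 4 pairs (adjusted p 0.0606 to 0.144). The log2 fold change was negative in each of the 13 alternatives, from -0.98 to -0.53.

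Krt8 and Krt18 code for the type II and type I partners of the first keratin pair of simple epithelia, and they were concentrated in few libraries. Krt18 had 44, 373, 47 and 121 counts in Control and 15, 332, 3 and 17 in OGTi. Krt8 had 0, 411, 19 and 102 counts in Control and 4, 388, 0 and 25 in OGTi. Both libraries of replicate 2 were the highest of their group for both genes, and the groups overlapped.

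For Krt18 the log2 fold change was -1.61 (SE 0.54, adjusted p = 0.0663), lower in the counts of 4 pairs but, on the TPM scale, in 3 of 4 pairs. Without replicate 2 it was -2.40 (SE 0.56, adjusted p = 0.0241), which passed the threshold, while without the replicate block it was -0.37 (adjusted p = 0.863). Krt8 gave -0.88 (SE 0.75, adjusted p = 0.473), with 25.1% of its 50-base stretches shared with the pseudogene Krt8-ps. Krt8 counts were 1.10 and 1.17 times those of Krt18 in the Control and OGTi libraries of replicate 2, and 0 to 1.47 times in the other 6 libraries.

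Krt7, the type II keratin of ducts, had 0, 81, 7 and 48 counts in Control and 1, 137, 8 and 3 in OGTi, again highest in replicate 2. The groups overlapped, and the log2 fold change was -0.24 (SE 0.86, adjusted p = 0.886), with the opposite sign, 0.97, without replicate 4. Krt20, a type I keratin of gut and urinary epithelium, had 89, 56, 64 and 23 counts in Control and 34, 33, 97 and 15 in OGTi, without a difference beyond its spread (log2 fold change -0.28, SE 0.42, adjusted p = 0.706). Krt80, at 4 to 9 counts in Control and 0 to 4 in OGTi, did not pass either (adjusted p = 0.334).

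**Figure D3:**
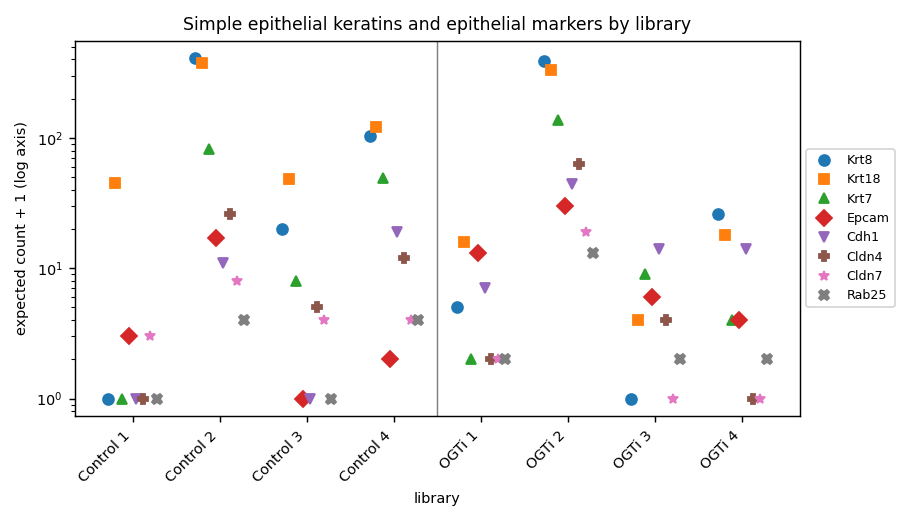
Expected counts plus 1 (log axis) of Krt8, Krt18 and Krt7 beside 5 general epithelial markers in each of the 8 libraries, Control to the left of the grey line and OGTi to the right; points are spread sideways for each gene. In both groups replicate 2 holds the highest values of Krt8, Krt18, Krt7 and Cldn4.

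Like these keratins, several epithelial markers were high in both libraries of replicate 2. Cldn4, coding for a tight junction protein of epithelia, reached 25 and 62 counts in the Control and OGTi libraries of replicate 2, and 0 to 11 in the remaining 6 libraries. Epcam had 16 and 29 counts in those libraries and 0 to 12 elsewhere, and Cdh1 had 10 and 43, against 0 to 18, with the 18 in Control replicate 4. The summed level of the 9 general epithelial markers, all with at least 10 counts, was 30.02 CPM in Control replicate 2. It was 17.8 to 25.4 in the other Controls, 21.3 in OGTi replicate 2 and 6.84 to 10.03 in the other OGTi libraries. The 17.8 was that of Control replicate 4, which came next to replicate 2 among Controls for Krt8, Krt18 and Krt7. Most of the summed level was Esrp2, at 126 to 917 counts, and St14, at 62 to 281, which were present in every library. St14 was highest in Control replicate 4. Esrp2 and St14 were the markers lower under OGTi, and none was higher, beside 10.2% lower and 8.13% higher over all genes tested. The part of epithelial cells in the keratin values was not tested.

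Markers of further cell types that make keratins gave these values, to be read beside the 8.13% higher and 10.2% lower over all genes tested. The 9 mesothelial markers summed to 1.52 to 2.22 CPM in Control and 1.55 to 2.60 in OGTi, with 4 of them tested, none called and 2 at 0 in all libraries. The 9 cholangiocyte markers summed to 126 to 374 in Control and 84.1 to 469 in OGTi, of which Spp1, also made by activated stellate cells, took most, and 1 of 8 tested, Sox9, was higher. The 8 hepatocyte markers summed to 0.0517 to 0.324 CPM in Control and 0.47 to 1.74 in OGTi, without overlap. Of the 3 tested, 1 was higher, Cyp2e1, at 1 to 3 counts in Control and 11 to 40 in OGTi (adjusted p = 0.00591). Cyp2e1 made up the largest part of the sum in each OGTi library. Alb and Apoa1, the others tested, overlapped between groups, at 0 to 7 against 0 to 8 counts and 0 to 7 against 2 to 12. The 9 keratinocyte markers summed to 1.70 to 5.60 in Control and 2.70 to 7.49 in OGTi. Among keratinocyte markers Lgals7 was at 0 in all libraries, and Trp63 and Dsg3 had counts only in OGTi replicate 4, 5 and 6 of them. The part of these cell types in the KRTAP values was not tested.

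Filament partners were far from balanced. Type I keratins summed to 127 ± 25.5 TPM in Control and 66.1 ± 17.6 TPM in OGTi, and type II keratins to 4.93 ± 6.17 and 4.81 ± 8.43 TPM (SD, n = 4). Type I exceeded type II in every library, by a ratio that ran from 5.12 in OGTi replicate 2 to 802 in Control replicate 1. Krt19 alone accounted for 81.4% to 96.2% of keratin TPM in Control and 68.3% to 94.8% in OGTi, with the lowest share of each group in replicate 2. Summed KRTAP TPM was 0.0186 to 0.0316 times keratin TPM in Control and 0.463 to 0.967 times in OGTi, a description only, because the sum includes Krtap21-1.

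Keratins of stratified epithelium and hair were sparse. The 3 basal epidermal keratins had no count in any library, and all 15 hair shaft keratins were below 10 counts, 10 of them at 0. Krt10, the type I keratin of the upper epidermis, had 75, 47, 57 and 59 counts in Control and 83, 23, 18 and 25 in OGTi, where replicate 1 overlapped with Control (log2 fold change -0.67, SE 0.40, adjusted p = 0.284). Krt28, an inner root sheath keratin outside the rule for named genes and chosen after its values were seen, was higher in all 4 pairs, at 3 to 9 counts in Control and 8 to 27 in OGTi, but did not pass (log2 fold change 1.34, SE 0.65, adjusted p = 0.185).

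A group at 0 in all 4 libraries was seen for 3 keratins, also named after their values were seen. Krt78 had no count in Control and 5, 0, 15 and 4 in OGTi, at least 9.54-fold higher against a floor of 3 counts over the group, while the exact 95% limit of the ratio, which also holds the counting error of OGTi, was 7.18 (adjusted p = 0.0893). Krt27, which shares 11.1% of its 50-base stretches with other genes, had 0, 9, 5 and 0 counts in Control and none in OGTi. It was at least 3.91-fold lower against that floor, with an exact upper limit of 0.36 for the ratio of OGTi to Control. Krt16, a stress keratin that shares 36.0% of its 50-base stretches with other genes, had 0, 0, 7 and 5 counts and none in OGTi, at least 3.35-fold lower, with an exact upper limit of 0.429. Neither passed the test, and such intervals and floors cover counting error only. Just inside the threshold of 10 were Krt16 and Krt222 with 12 counts each, Krt27 with 14, Krt17 with 15 and Krt13 with 20, and just outside it Krt23 with 7 and Krt85 and Krtap5-4 with 5 each.

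**Figure D4:**
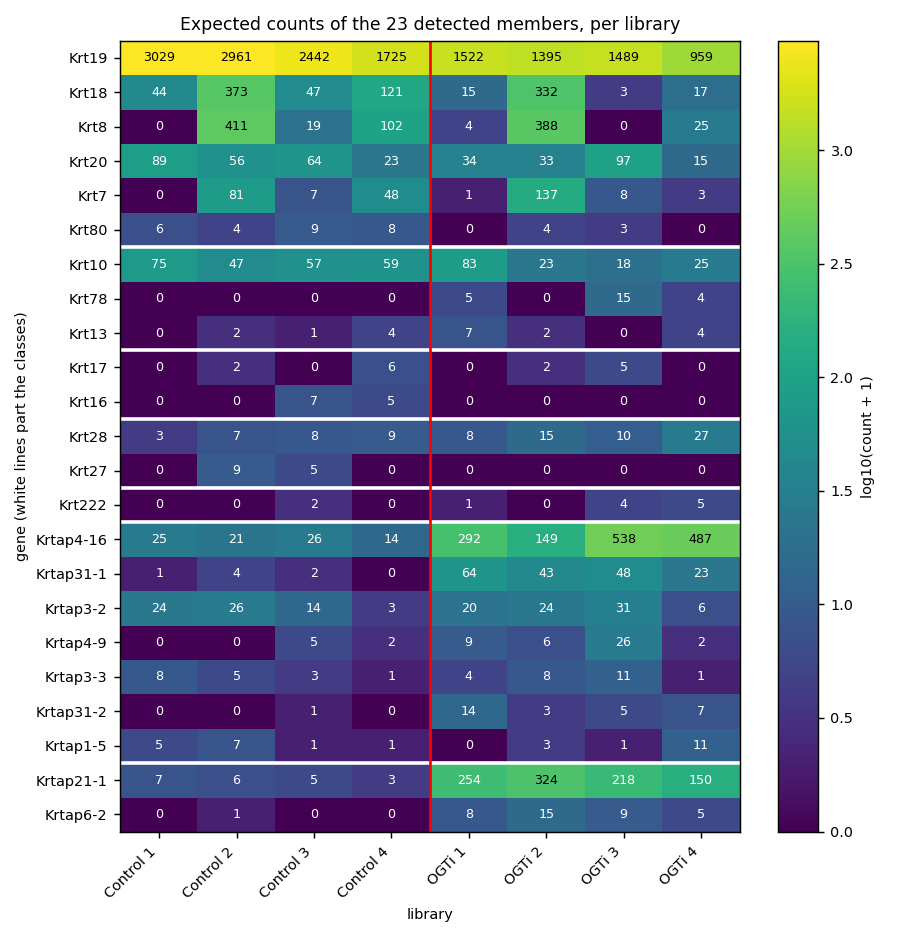
Expected counts of the 23 detected members in each library, printed in the cells and coloured by log10(count + 1); white lines part the classes and the red line parts Control from OGTi. The block of the 9 KRTAPs at the bottom brightens to the right of the red line for Krtap4-16, Krtap31-1 and Krtap21-1, while Krt19 at the top holds 1725 to 3029 counts on the left and 959 to 1522 on the right.

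**Figure D5:**
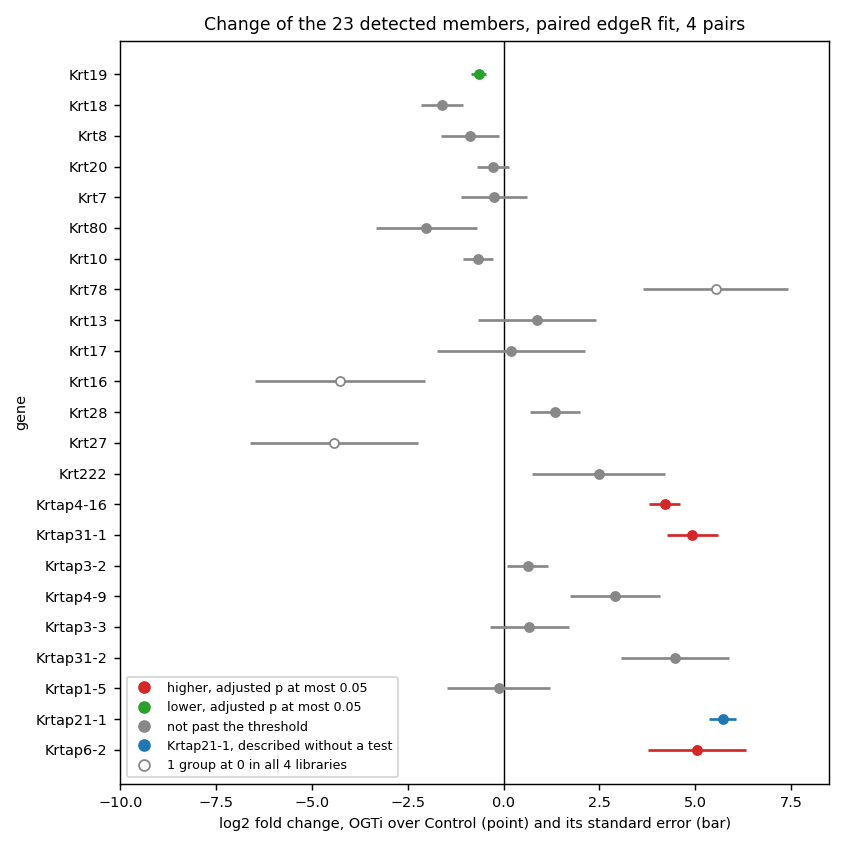
Log2 fold change of OGTi over Control (points) with its standard error (bars) for the 23 detected members in the paired edgeR fit of 4 pairs, coloured by the test. Krtap21-1, by which the family was chosen, is shown without a test, and its bar is a description only. The 3 members called higher lie between 4.20 and 5.05 and Krt19, called lower, at -0.66; open points have 1 group at 0 in all 4 libraries, so that their fitted value depends on the prior count.

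Genes that work with keratins were read from 4 lists of 66 genes, of which 50 were tested, 4 were higher and 5 were lower, shares close to the 8.13% and 10.2% over all genes tested, so the tally is no result about the lists. Against the same shares, none of the 12 other intermediate filament genes tested was higher and 2 were lower. Synm, coding for synemin, a linker that joins desmin and vimentin filaments, had 273 to 575 counts in Control and 43 to 145 in OGTi (log2 fold change -1.92, SE 0.27, adjusted p = 0.00134). Lmnb2, coding for lamin B2 of the nuclear lamina, had 278 to 373 and 110 to 188 counts (log2 fold change -0.90, SE 0.25, adjusted p = 0.0326). The groups did not overlap for either gene.

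The main filament genes of stellate cells did not pass. Vim had 16181 to 22648 counts in Control and 13822 to 32788 in OGTi (log2 fold change 0.45, SE 0.22, adjusted p = 0.195), Des gave -0.19 (SE 0.22, adjusted p = 0.626) and Gfap -1.13 (SE 1.09, adjusted p = 0.531). Among 16 tested genes of desmosomes and filament linkers, which anchor keratin to cell junctions, 1 was lower, beside 10.2% over all genes tested. It was Evpl, coding for envoplakin, at 17 to 33 counts in Control and 1 to 8 in OGTi (log2 fold change -2.14, SE 0.65, adjusted p = 0.0445).

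Of 15 tested transcription factors of keratinocytes and hair, 3 were higher and 1 was lower, beside 8.13% and 10.2% over all genes. Klf4, needed for the skin barrier, had 444 to 489 counts in Control and 880 to 1265 in OGTi (log2 fold change 1.39, SE 0.21, adjusted p = 0.00217). Klf5, its basal-layer relative, had 23 to 93 counts against 103 to 181 (log2 fold change 1.79, SE 0.41, adjusted p = 0.013). Grhl1, a regulator of desmosomal genes, had 2, 18, 9 and 6 counts in Control and 9, 28, 100 and 59 in OGTi, higher in all 4 pairs but overlapping between groups (log2 fold change 2.64, SE 0.60, adjusted p = 0.0126). Foxn1, a regulator of hair keratin genes, had 73, 30, 64 and 124 counts against 23, 4, 11 and 60 (log2 fold change -1.67, SE 0.42, adjusted p = 0.0204).

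Of 7 tested matrix and crosslinking partners 1 was higher and 1 was lower. Over all genes tested 8.13% were higher and 10.2% lower, so the tally is no result about this list. Ivl, coding for involucrin, the scaffold of the cornified envelope, was abundant at 8388 to 11724 counts in Control and 1222 to 5190 in OGTi (log2 fold change -1.74, SE 0.27, adjusted p = 0.00217). Sbsn, coding for the epidermal protein suprabasin, had 60 to 91 counts against 143 to 211 (log2 fold change 1.46, SE 0.28, adjusted p = 0.00606). The calls for Synm, Klf4, Ivl and Sbsn held in each of the 13 alternatives. Leaving out 1 pair at a time ended the calls for Lmnb2 (adjusted p 0.0663 to 0.118) and Evpl (0.106 to 0.129) in each case, and those for Foxn1 (0.0414 to 0.0944), Grhl1 (0.00749 to 0.0917) and Klf5 (0.00677 to 0.0643) in some. Beyond these, Foxn1 was lost without the replicate block (adjusted p = 0.240), Lmnb2 with upper-quartile scaling (0.054), and Evpl with upper-quartile scaling (0.0571), without the block (0.0509) and with the gene length trend removed (0.0553).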

How the data were processed

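Primary mouse HSCs in 8 libraries were analysed, 4 Control and 4 OGTi, grouped by their titles. The authors mapped paired reads with Bowtie2 (2.3.5.1) to mm39 and estimated strand-specific expected counts and TPM with RSEM (1.3.1), and these deposited values were used. Their table of comparisons made with DESeq2 (1.36.0), holding fold changes, p-values and 16 per-sample columns, was not used. Expected counts were rounded to whole numbers; no value of a member was fractional. Genes with a total of at least 10 counts were tested in edgeR (4.0.16, R 4.3.3) by the quasi-likelihood test with TMM scaling, with Benjamini-Hochberg adjustment over all 19963 genes tested. The replicate number was a block, since the study pairs its samples; deviations from the group means correlated between same-numbered libraries at 0.178, 0.275, 0.187 and 0.403, against -0.438 to 0.267 between differently numbered ones. TPM are scaled for transcript length, so levels were compared between genes in TPM.

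The members and lists were chosen with earlier results of these data known. The members named are Krtap21-1, each other member with an adjusted p of at most 0.05 and each with a mean TPM of at least 1 in a group; from the lists, up to 4 called genes each, with Vim, Des and Gfap. Alternatives were other scalings, DESeq2 (1.42.0), other filters, no block, a gene length correction, limma (3.58.1) on log2(TPM + 1) and log2(TPM + 0.1) for genes with a mean TPM of at least 0.1, a filter set after a simulated test recovered no change without it, and the removal of each pair. On simulated counts for this comparison over 19416 genes, the paired edgeR fit recovered 92% of changes of 2 log2 units and 31% of changes of 1, with 10.2% of its calls false. The simulation changed far fewer genes than were called here, drew them from genes with more counts, and held no replicate effect. These rates therefore do not cover members with few counts, such as Krtap6-2.

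Positions come from GENCODE M39 on GRCm39, in which all 111 members had one, 1 of them (Krtap15) through a RefSeq synonym and 1 (Krt74) with several entries, of which the first was used. Of the 168 GENCODE names that match the rule, 57 matched no gene of the files by name or RefSeq synonym; some may be in the files under other names, so the family tallies can leave out members. Intervals are exact at 95%.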

Additional observations from a re-analysis of the deposited data

Results flagged for a closer look

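In 44 groups of 4 libraries, 6 had 1 library far from the other 3 by Dixon's criterion. Independent, normally spread values would give about 1 in 20, or 2.2. Krt18, Krt8 and Krt7 were flagged in the same library and Krtap6-2 on a single count, so 6 against 2.2 is a description only. In OGTi replicate 2, Krt18 stood at 14.2 TPM against 0.11 to 0.67 in the other OGTi libraries, Krt8 at 12.32 TPM against 0 to 0.73, and Krt7 at 5.05 TPM against 0.03 to 0.25. Krtap31-1 was at 1.42 TPM in OGTi replicate 4 and 2.76 to 2.95 in the others. Krtap6-2 had 0.08 TPM in Control replicate 2, a single count, and 0 in the other Controls. Klf4 was at 5.8 TPM in Control replicate 4 and at 4.98 to 5.11 in the others.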

How the results depend on the processing

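Of the 13 alternatives, 10 left the number of higher members, Krtap21-1 apart, within 1.5 times the 3 given above. The same 3 genes were called with library totals alone, without the count filter and with the gene length trend removed. Krtap31-2 was added with upper-quartile scaling and without the replicate block. Krtap6-2 was not among the calls under edgeR's own filter or in any fit without 1 pair. DESeq2 and both limma fits called 5, adding Krtap31-2 and Krtap4-9, and fits without 1 pair called 2. Lower members numbered 2 with library totals alone, DESeq2 and both limma fits, Krt18 being added to Krt19, and 0 with upper-quartile scaling; without 1 pair they numbered 0 to 1. Without the count filter and without pair 2 the 1 lower member was Krt18, not Krt19. Without the replicate block 4 members were higher and 0 lower, and 2991 genes were called in place of 3666. Higher genes of the 4 lists numbered 7 with the gene length trend removed and 2 to 5 without 1 pair. Lower genes of the lists numbered 10 with library totals alone, 9 without the count filter, 8 with DESeq2 and both limma fits, and 2 to 6 without 1 pair. Calls over all genes fell to 1905 without pair 3 and 1956 without pair 4. Without 1 pair the log2 fold change of Krt20 ran from -0.68 to 0.059, reversed without replicate 1, and that of Krt7 from -0.98 to 0.97, reversed without replicate 4. That of Krt7 was 0.42 without the replicate block. Over all genes tested, the median of 0.0053 (log2) became 0.13 under upper-quartile scaling, -0.19 under library totals, and -0.21 and -0.34 with limma on log2(TPM + 1) and log2(TPM + 0.1); among all calls the split of 1623 higher and 2043 lower became 2051 and 1732 under upper-quartile scaling, 1256 and 2911 under library totals, and 1214 and 3877 with limma on log2(TPM + 1). Where not stated otherwise, the cause was not tested. Krtap6-2 could not be tested under edgeR's own filter. Fold changes of members with few counts, such as Krtap6-2 and Krt78, are bounded by counting error at this depth.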
